A study of Homo sapiens with 6 samples.

Results

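Antisense RNAs that carry the name of a gene on the opposite strand and the ending AS with a number were followed in HCT116 cells, a line derived from a human colorectal carcinoma, after treatment with oxaliplatin. Members were chosen by their symbol and their raw count in the deposited gene table, which had to average at least 20 over all libraries, without EPB41L4A-AS1. This rule left 29 RNAs of 161 with such a symbol and of 27942 genes in the table. The average count that chose them is given below as a description only. Cells of the OXA group (n = 3) received 0.5 µM oxaliplatin for 24 h, and cells of the NT group (n = 3) were left untreated for the same time. All 6 samples came from the same line in the same medium, and polyadenylated RNA was sequenced from a strand-specific library kit. The labels call the samples triplicates and do not say what the replicate numbers stand for. The p-values thus measure the spread between replicate samples of 1 line.

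Antisense transcripts often arise at promoters that fire in both directions, where the RNA of the coding gene runs one way and a non-coding RNA starts close by and runs the other way. Others start far inside or beyond the gene and run back across its body. Some of them act on the neighbouring gene in cis, for instance by bringing or keeping away chromatin factors, many others have no known role, and a name shared with a gene states position and not function. Oxaliplatin is a platinum drug that crosslinks DNA, which blocks replication and transcription and, in cells with intact p53 such as HCT116, activates p53 target genes.

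The libraries held between 32979521 and 40967880 counts. The treatment was visible in 2 p53 targets, CDKN1A, an inhibitor of cyclin-dependent kinases, with a log2 fold change of 2.93 (SE 0.15) and MDM2, the ubiquitin ligase of p53, with 2.22 (SE 0.12), each with an adjusted p of 0.000445 (edgeR's quasi-likelihood test). Epithelial markers EPCAM, KRT8, KRT18 and CDH1 had mean raw counts between 3768 and 46635, whereas of the intestinal markers CDX2 averaged 525, VIL1 69.5 and CDH17 only 1.5 raw counts. Of the markers of other cells, DCN was at 0 in every library, CD3E, PTPRC and COL1A2 averaged under 1 count, PECAM1 averaged 3.17 and VWF 19.3, and COL1A1 and CD68 averaged 192.5 and 197. Library NT1 stood apart, with a chi-square per gene of 83.1 and 75.7 against the other untreated libraries where all other pairs within a group lay between 19.2 and 29.6. Deviations from the group means were shared between NT and OXA libraries of equal number, so results of a fit blocked on that number (replicate block) are added where a call depends on it.

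By the current annotation (GENCODE 44, GRCh38), 28 of the 29 members are long non-coding RNAs and 1, NCBP2-AS2, is listed as a protein-coding gene. In that release 7 members are renamed as divergent transcripts, namely those at STK4, SLC2A1, USP27X, RNF139, RAB30, USP46 and PAXIP1, and RPARP-AS1 is listed as C10orf95-AS1. The sense gene of the same name was found in the table for 28 members, the exception being RPARP-AS1, and lay on the opposite strand in all 28 pairs. In 19 pairs both genes start within 1 kb of each other. Of these, 13 are head to head without overlap, with starts 17 to 298 bases apart, and in 6 the starts lie 19 to 932 bases inside each other's bodies. In 7 pairs the starts lie farther apart and the gene bodies overlap, and in 2, ZNF503-AS1 and FOXD2-AS1, the genes do not overlap. Exons of both strands overlap in 8 pairs, but cover over 20% of the antisense exons in only 3, at 100% for FOXD1-AS1, 56.6% for VASH1-AS1 and 24.1% for MAPKAPK5-AS1. The strand setting used for counting is not given in the sources used here. Next to no counts were found for 3 antisense genes with at least 50% of their exon bases opposite a sense gene of 1000 or more counts. ZBTB20-AS2 and PCF11-AS1 were at 0 in every library and SEC23A-AS1 averaged 0.333 counts. The members with such an overlap lie opposite less abundant genes and were counted, with a mean raw count of 330.5 for VASH1-AS1 beside 899.5 for VASH1 and of 142 for FOXD1-AS1 beside 264 for FOXD1. At those 3 genes reads of the sense gene were thus hardly credited to the antisense gene. These values cannot tell whether the strand setting or the assignment of shared reads did this. Of the 161 RNAs with such a symbol, 70 were at 0 in every library.

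The promoter windows below show how close the starts of such pairs lie, for 3 pairs whose antisense RNA differed between the groups in the fit with the replicate block and for SLC2A1, where both strands moved apart most. Each runs from 250 bases before to 50 bases after the RefSeq start of the coding gene (GRCh38.p14), 5′ to 3′ on the coding strand, and capitals mark the stretch from the start of the antisense RNA, which is transcribed in the other direction, to the start of the coding gene. For ELFN1-AS1, which has its own start inside the body of ELFN1, the window is that of the antisense RNA and capitals mark its first 50 transcribed bases. The positions are chr21:32392963-32393262 for URB1, chrX:46545372-46545671 for ZNF674, chr4:52659252-52659551 for USP46, chr1:42958819-42959118 for SLC2A1 and chr7:1742261-1742560 for ELFN1-AS1, all on the minus strand.
URB1 and URB1-AS1: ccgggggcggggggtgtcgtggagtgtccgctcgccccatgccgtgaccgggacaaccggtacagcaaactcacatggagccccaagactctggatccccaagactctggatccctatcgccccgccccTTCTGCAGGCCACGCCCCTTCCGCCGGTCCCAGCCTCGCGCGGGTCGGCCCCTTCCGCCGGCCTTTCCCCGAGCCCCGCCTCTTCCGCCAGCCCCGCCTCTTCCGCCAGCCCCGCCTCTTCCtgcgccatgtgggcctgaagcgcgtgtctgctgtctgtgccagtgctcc
ZNF674 and ZNF674-AS1: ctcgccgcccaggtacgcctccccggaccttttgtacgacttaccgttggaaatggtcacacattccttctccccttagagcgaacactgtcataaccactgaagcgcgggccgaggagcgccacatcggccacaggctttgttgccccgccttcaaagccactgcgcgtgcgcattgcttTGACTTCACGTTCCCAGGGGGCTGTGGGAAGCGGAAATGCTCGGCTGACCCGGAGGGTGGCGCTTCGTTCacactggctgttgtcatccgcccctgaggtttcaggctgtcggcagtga
USP46 and USP46-AS1: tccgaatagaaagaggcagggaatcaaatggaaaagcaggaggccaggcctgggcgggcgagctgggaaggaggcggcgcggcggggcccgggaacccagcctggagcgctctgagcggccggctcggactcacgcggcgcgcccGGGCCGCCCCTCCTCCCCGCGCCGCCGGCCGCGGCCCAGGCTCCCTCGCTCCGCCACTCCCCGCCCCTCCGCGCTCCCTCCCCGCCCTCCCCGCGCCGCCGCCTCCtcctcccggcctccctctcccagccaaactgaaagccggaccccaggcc
SLC2A1 and SLC2A1-AS1: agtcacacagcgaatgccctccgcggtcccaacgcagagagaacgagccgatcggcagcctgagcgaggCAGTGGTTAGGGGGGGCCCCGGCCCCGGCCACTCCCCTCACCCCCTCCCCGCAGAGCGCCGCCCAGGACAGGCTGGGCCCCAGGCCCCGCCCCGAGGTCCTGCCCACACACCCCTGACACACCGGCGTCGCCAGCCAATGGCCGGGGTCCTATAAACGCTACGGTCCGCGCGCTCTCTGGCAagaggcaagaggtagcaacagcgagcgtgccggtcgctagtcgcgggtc
ELFN1-AS1: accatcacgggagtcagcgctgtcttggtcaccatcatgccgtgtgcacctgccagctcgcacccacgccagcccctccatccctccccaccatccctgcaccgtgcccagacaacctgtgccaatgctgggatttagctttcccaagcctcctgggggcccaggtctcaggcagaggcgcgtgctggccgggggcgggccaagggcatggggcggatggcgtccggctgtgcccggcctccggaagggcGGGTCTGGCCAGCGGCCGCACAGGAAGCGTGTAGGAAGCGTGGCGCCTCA

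The capital stretch lies between RefSeq starts that are 121 bases apart at URB1, 105 at USP46 and 181 at SLC2A1, where the antisense RNA begins upstream of the gene. At ZNF674 the starts are 69 bases apart in RefSeq, whereas the GENCODE starts lie 19 bases inside each other. The GC content of the 4 windows of the pairs ran from 60.7% at ZNF674, close to the median of 58.7% over all windows, to 76.7% at USP46. RefSeq promoter windows matched 25 of the 29 antisense RNAs, with a median GC content of 69.7% and a median of 30 CpG dinucleotides, and 24 sense genes, with medians of 71% and 33.5. Over all 35116 RefSeq promoter windows of this length the medians were 58.7% and 14. The GC content was above that median in 19 of the 25 windows of antisense RNAs and below it in 6, those of VASH1-AS1 (49%), MAPKAPK5-AS1 (50%), FOXD2-AS1 (53.3%), IQCH-AS1 (53.7%), ZNF503-AS1 (54%) and RAB30-AS1 (56.7%). The windows of all promoters were not limited to expressed genes, whereas the members are expressed by rule. Windows of pairs with close starts share sequence, so the medians of antisense RNAs and sense genes are not separate observations. Motifs were searched on both strands. A p53 half-site (the decamer consensus) was found in 3 of the 25 windows (12%), those of RALY-AS1, SOX9-AS1 and SCAMP1-AS1, and in 6.63% of all windows. None of these 3 RNAs passed a test below. The TATAAA box was present in 1 window (4%), that of SLC2A1-AS1, against 11.5% of all windows, and CCAAT in 8 (32%) against 34.6%. The E-box CACGTG was found in 2 (8%) against 7.26%, and the cAMP response element TGACGTCA in none of the 25 against 1.85%. In the SLC2A1 window printed above, both CCAAT and TATAAA lie in the capital stretch shortly before the start of SLC2A1. The window of SLC2A1-AS1 spans this stretch as well, so the sites counted for it include these same sites of the coding strand.

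The antisense RNAs were weakly expressed. Of the 161 RNAs with such a symbol, 98 averaged under 1 count and 70 of them were at 0 in every library. The mean raw count of the members ran from 20.3 (STK4-AS1) to 530.5 (MAPKAPK5-AS1) with a median of 91.5, against a median of 899.5 for the 13727 genes tested. Just inside the threshold of 20 lay STK4-AS1 and USP27X-AS1 (21.3), and just outside it EIF1B-AS1 (16.7) and WWC2-AS2 (14). The members together made up 0.01004% to 0.0112% of each library, and the 5 most abundant, MAPKAPK5-AS1, RPARP-AS1, VASH1-AS1, NCBP2-AS2 and IQCH-AS1, held 46.7% of that. Normalized counts, that is counts scaled by TMM to a common library size, were summed over the members. The sum was 3670 ± 121 (SD, n = 3) in NT and 3800 ± 191 (SD, n = 3) in OXA. By library it was 3588, 3809 and 3614 in NT1, NT2 and NT3 and 3715, 4018 and 3666 in OXA1, OXA2 and OXA3. The groups overlapped, while each OXA library was above the NT library of equal number. This difference was not tested.

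Compared per length, as counts scaled to library size and exon length (CPM per kb) and averaged over the 6 libraries, the sense gene was above its antisense RNA in 21 of 28 pairs, by a median of 5.88-fold over all pairs. The widest gap was at SOX9, a transcription factor of intestinal crypt cells, with 47.5 CPM per kb on the sense strand and 0.078 for SOX9-AS1, a ratio of 607. SLC2A1, which encodes the glucose transporter GLUT1, stood 338-fold above SLC2A1-AS1. These levels rest on exon lengths of GENCODE 44, and the annotation used for counting is not given. By mean raw counts the gap was wider at SLC2A1 (11508 against 22.3) than at SOX9 (6690 against 43.8). In 7 pairs the antisense RNA had the higher level per length. ELFN1-AS1, at 5.45 CPM per kb, exceeded ELFN1, which encodes a synaptic adhesion protein and reached 0.322 CPM per kb. The others were FOXD1-AS1 (9.23 against 2.57), MNX1-AS1 (2.71 against 0.514), TRIM52-AS1 (2.61 against 0.913), VASH1-AS1 (4.98 against 3.46), MAPKAPK5-AS1 (4.71 against 2.84) and FOXD2-AS1 (1.20 against 0.789). FOXD1-AS1, VASH1-AS1 and MAPKAPK5-AS1 have over 20% of their exons opposite sense exons, so their levels depend on the strand setting. By mean raw counts the sense gene was higher at MAPKAPK5 (1428 against 530.5), VASH1 (899.5 against 330.5), FOXD1 (264 against 142) and TRIM52 (222.5 against 156). At ELFN1, MNX1 and FOXD2 the antisense RNA was higher by raw counts as well. In FOXD1, FOXD2 and MNX1 the sense gene encodes a developmental transcription factor that was itself weakly expressed in these cells.

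**Figure D1:**
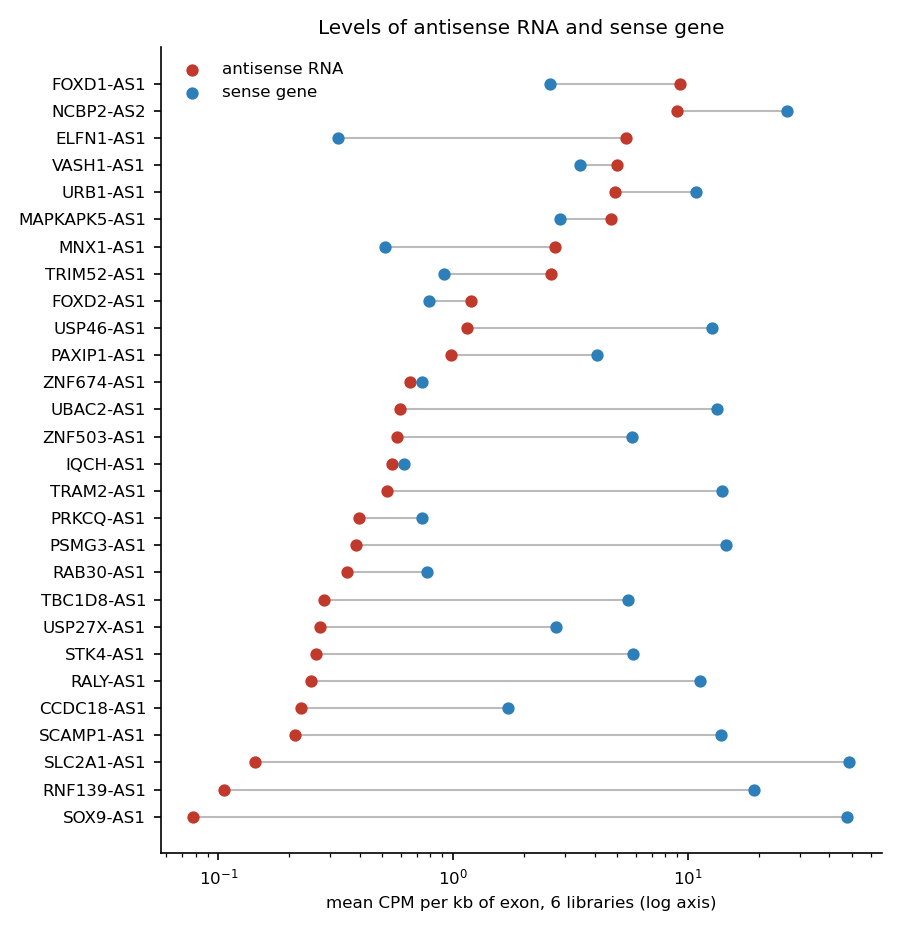
Levels of antisense RNAs (red) and sense genes of the same name (blue) as mean CPM per kb of exon over the 6 libraries, on a log axis, with 1 row per pair and a grey line joining the members of a pair. The sense gene lies to the right in 21 of 28 pairs, and the lines are longest at SOX9-AS1 and SLC2A1-AS1.

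Across the 29 antisense RNAs, all of which passed the filter on low counts, no member differed between OXA and NT in edgeR's test at an adjusted p under 0.05, where 5.07% of all genes tested did and 3.51% of the 4506 genes within the members' range of counts. DESeq2, which called 9.05% of all genes, and limma-voom, which called 4.84%, called 0 members as well. The lowest adjusted p was 0.109, for USP46-AS1. At an unadjusted p under 0.05 edgeR found 5 members, 4 higher (ZNF674-AS1, URB1-AS1, FOXD1-AS1 and ZNF503-AS1) and 1 lower (USP46-AS1) (17.2% together), beside 21.7% of all genes. The log2 fold changes of OXA over NT lay between -0.79 and 0.71 with a median of 0.0043, against a median of 0.023 over all genes, and were positive in 15 members and negative in 14. Their standard errors ran from 0.12 to 0.50 with a median of 0.24, close to the 0.22 of genes in the same range of counts and above the 0.14 of all genes. The estimate was over 1.5-fold in either direction for 4 members, and with errors of this size a missed threshold does not show that a member was alike in both groups. Counted without a model, the 3 libraries of OXA and NT did not overlap for 10 members (34.5%), where 28.9% of all genes and 25.8% of those in the same range of counts did not. The 10 were split evenly, with NCBP2-AS2, FOXD1-AS1, ZNF503-AS1, RAB30-AS1 and ZNF674-AS1 higher in OXA and IQCH-AS1, TRAM2-AS1, PRKCQ-AS1, USP46-AS1 and SLC2A1-AS1 lower. Fewer cells that express an RNA and less of it per cell cannot be told apart in these bulk libraries.

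**Figure D2:**
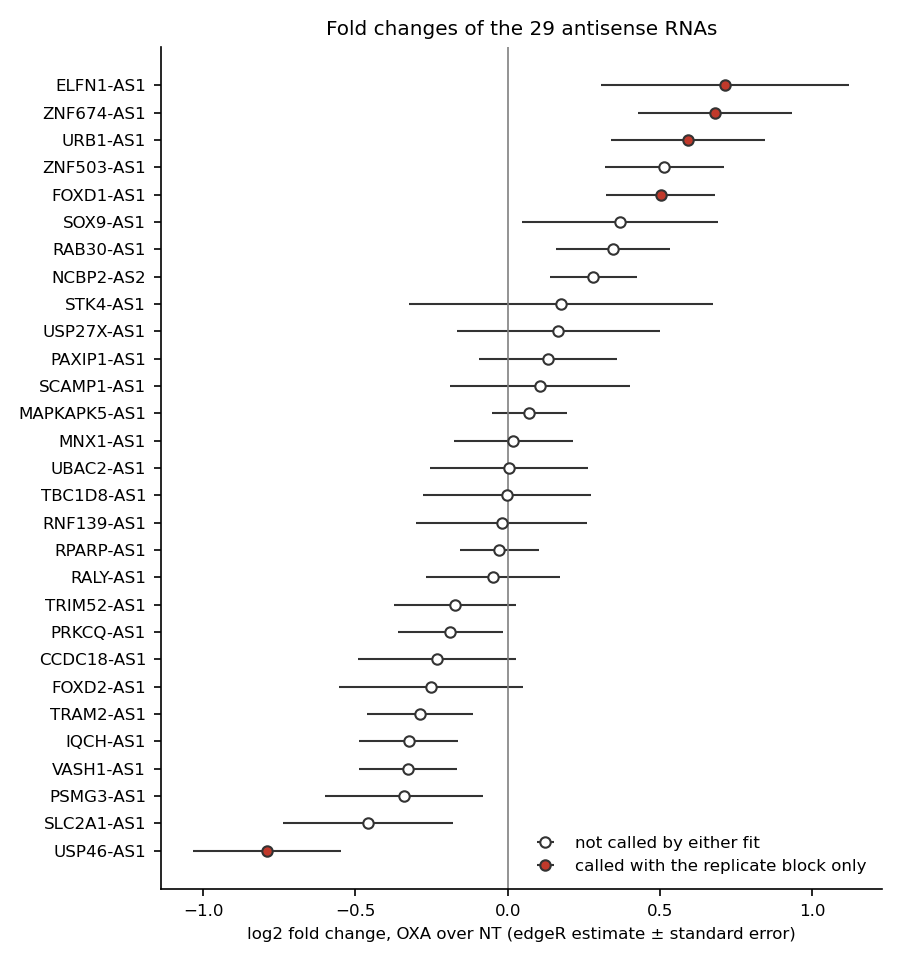
Log2 fold change of OXA over NT for the 29 antisense RNAs (edgeR estimate, bars are the standard error, 3 libraries per group), ordered by size. Filled points mark the 5 RNAs called with the replicate block only. Estimates run from -0.79 (USP46-AS1) to 0.71 (ELFN1-AS1), with 15 above and 14 below 0.

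With the replicate block, 5 of the 29 members (17.2%) passed, 4 higher and 1 lower in OXA. In that fit 23.0% of all genes passed, 12.1% higher and 10.9% lower, and 14.4% of those in the members' range of counts. The share of the members thus lay between these backgrounds. With 1 number left out, the blocked fit rests on 4 libraries and 1 residual degree of freedom, and it called 41.5% of all genes without number 1, 11.8% without number 2 and 22.3% without number 3.

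ELFN1-AS1 is a spliced RNA of 2 exon blocks on chromosome 7, from 1738630 to 1742291, that lies whole within ELFN1 without touching its exons. It had 81.8, 228 and 131 normalized counts in NT1, NT2 and NT3 and 181, 355 and 187 in OXA1, OXA2 and OXA3. The groups overlapped, since NT2 was above OXA1 and OXA3, while each OXA library was above the NT library of its number. The log2 fold change was 0.71 (SE 0.41, adjusted p = 0.366) without the block and 0.74 (SE 0.16, adjusted p = 0.0247) with it, both by edgeR's quasi-likelihood test. The call held without any 1 of the numbers, at log2 fold changes of 0.58 without number 1, 0.78 without number 2 and 0.86 without number 3. The sense gene ELFN1 had 28.6, 60.3 and 54.8 normalized counts in NT and 41.1, 76.3 and 63.3 in OXA, the same order of libraries within each group, with a log2 fold change of 0.34 (SE 0.19, adjusted p = 0.230) with the block.

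URB1-AS1 is an unspliced RNA on chromosome 21, from 32393095 to 32393980, that starts 83 bases from URB1, a gene for a factor that assembles the large ribosomal subunit. It had 95.1, 164 and 115 normalized counts in NT and 174, 233 and 157 in OXA. The groups overlapped only through NT2, which was above OXA3, and each OXA library was above its own NT library. The log2 fold change was 0.59 (SE 0.25, adjusted p = 0.226) without the block and 0.60 (SE 0.14, adjusted p = 0.0336) with it by edgeR's test, and without number 2 the latter adjusted p was 0.0801. URB1 itself had 3442, 3960 and 4009 normalized counts in NT and 5012, 5007 and 5346 in OXA. It rose without overlap, with a log2 fold change of 0.43 (SE 0.092, adjusted p = 0.0426), so both directions of this promoter window had higher counts in OXA.

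ZNF674-AS1 lies on the X chromosome, from 46545438 to 46548841, opposite a gene for a zinc finger protein of the KRAB family. Its normalized counts were 48.0, 57.2 and 33.8 in NT and 77.9, 80.7 and 64.2 in OXA, without overlap. The log2 fold change was 0.68 (SE 0.25, adjusted p = 0.170) without the block and 0.70 (SE 0.19, adjusted p = 0.0462) with it by edgeR's test. The call was lost without number 2 (adjusted p = 0.108) or number 3 (adjusted p = 0.131). ZNF674 moved alongside, from 156, 141 and 110 normalized counts in NT to 197, 202 and 179 in OXA, with a log2 fold change of 0.50 (SE 0.18, adjusted p = 0.156) without the block and an adjusted p of 0.0427 with it.

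FOXD1-AS1 lies on chromosome 5, from 73446357 to 73446984, and all of its exon bases are opposite exon bases of FOXD1, a forkhead transcription factor gene, so its counts depend on how strand was used in counting. It had 119, 101 and 131 normalized counts in NT and 157, 150 and 188 in OXA, without overlap. By edgeR's test the log2 fold change was 0.50 (SE 0.18, adjusted p = 0.157) without the block and 0.50 (SE 0.13, adjusted p = 0.0407) with it, and the call was lost without number 2 (adjusted p = 0.258) or number 3 (adjusted p = 0.113). FOXD1 had 110, 275 and 245 normalized counts in NT and 253, 399 and 307 in OXA. The FOXD1 groups overlapped, as NT2 was above OXA1, with a log2 fold change of 0.60 (SE 0.34, adjusted p = 0.354) without the block and 0.66 (SE 0.18, adjusted p = 0.0509) with it.

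USP46-AS1 was the member with the lowest fold change. It starts 105 bases from USP46, a gene for a deubiquitinating enzyme, and runs on chromosome 4 from 52659406 to 52661668. Its normalized counts were 62.4, 48.8 and 52.9 in NT and 35.7, 25.1 and 33.9 in OXA. All OXA libraries were below all NT libraries. The log2 fold change was -0.79 (SE 0.24, adjusted p = 0.109) without the block and -0.79 (SE 0.20, adjusted p = 0.0423) with it by edgeR's test, and without number 2 the latter adjusted p was 0.153. USP46 had 4366, 3989 and 4587 normalized counts in NT and 3889, 3418 and 3973 in OXA, so its groups did not overlap either. Its fold change was smaller, at -0.20 (SE 0.048, adjusted p = 0.0351) with the block.

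**Figure D3:**
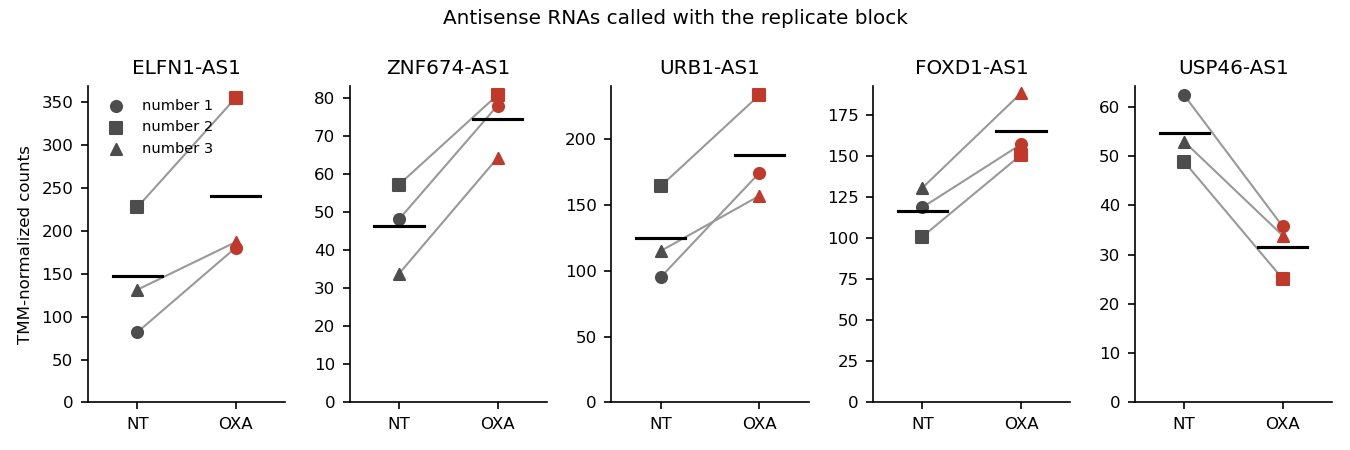
TMM-normalized counts of the 5 antisense RNAs called with the replicate block, in the 3 NT (grey) and 3 OXA (red) libraries. Grey lines join libraries of the same number, marked by the shape of the points, and black bars are group means. Within each number the OXA library is above its NT library in the first 4 panels and below it for USP46-AS1.

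Leaving out 1 number with the block also brought in RNAs that were not called with all 3. Without number 1, the number of the library that stood apart, VASH1-AS1 was called lower (log2 fold change -0.45, adjusted p = 0.000261), and without number 3, ZNF503-AS1 was called higher (0.74, adjusted p = 0.0111), both by edgeR's quasi-likelihood test. These are the fits that called 41.5% and 22.3% of all genes. With all numbers VASH1-AS1, opposite a gene for a tubulin carboxypeptidase, had 316, 367 and 420 normalized counts in NT and 300, 322 and 257 in OXA. Its groups overlapped because NT1 was below OXA2. ZNF503-AS1 had 91.0, 82.1 and 113 normalized counts in NT and 149, 142 and 119 in OXA, without overlap, with a log2 fold change of 0.51 (SE 0.20, adjusted p = 0.180).

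Of the 5 most abundant members, 2 had fold changes close to 0. MAPKAPK5-AS1, which starts within the body of a gene for a stress-activated protein kinase, had 566, 530 and 462 normalized counts in NT and 549, 562 and 527 in OXA, with a log2 fold change of 0.071 (SE 0.12). RPARP-AS1 had 406, 364 and 357 normalized counts in NT and 396, 340 and 368 in OXA, with a log2 fold change of -0.029 (SE 0.13). In both the groups overlapped. NCBP2-AS2, the member annotated as coding, starts 80 bases from NCBP2, which encodes the small subunit of the nuclear cap-binding complex. It had 227, 275 and 258 normalized counts in NT and 293, 335 and 297 in OXA, without overlap, but did not pass (log2 fold change 0.28, SE 0.14, adjusted p = 0.309). IQCH-AS1 had 289, 228 and 244 normalized counts in NT and 208, 178 and 221 in OXA, again without overlap and with a log2 fold change of -0.33 (SE 0.16, adjusted p = 0.301). Near the lower end of the counts, STK4-AS1, opposite the gene for the Hippo pathway kinase MST1, had 6.13, 28.1 and 22.8 normalized counts in NT and 16.2, 25.1 and 23.2 in OXA. Its spread came mainly from the low value in NT1, and its standard error of 0.50 was the largest among the members. The remaining fold changes near the ends of the range were those of PSMG3-AS1 (-0.34, SE 0.26), whose sense gene encodes a proteasome assembly chaperone, and SLC2A1-AS1 (-0.46, SE 0.28).

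The 28 sense genes were on average more deeply counted, with a median standard error of 0.14. In edgeR's test 2 of them (7.14%) rose and 0 fell, where 2.78% of all genes rose and 2.29% fell, and with the replicate block 4 rose and 5 fell (32.1%), beside 23.0%. The 2 that passed in both fits were URB1 and SOX9. SOX9 had 5617, 5871 and 5333 normalized counts in NT and 7695, 8358 and 7460 in OXA, without overlap, with a log2 fold change of 0.48 (SE 0.086, adjusted p = 0.0240). Both calls held without NT1, and neither held without NT2, NT3 or any 1 OXA library, where the adjusted p ran from 0.0648 to 0.116 for SOX9 and from 0.0877 to 0.161 for URB1. URB1 also missed the threshold with no filter on low counts (adjusted p = 0.0562) and with the authors' factors (adjusted p = 0.0765). SOX9-AS1 had 40.9, 45.7 and 30.1 normalized counts in NT and 68.2, 50.2 and 33.0 in OXA, with overlapping groups and a log2 fold change of 0.37 (SE 0.32, adjusted p = 0.563). With the block, SLC2A1 and ZNF674 rose as well, and MAPKAPK5, IQCH, PAXIP1, CCDC18 and USP46 fell. No sense gene was in the lists of p53 targets or DNA replication genes that were kept for comparison, of which 26 of 29 and 0 of 35 rose and 0 and 18 fell.

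Whether an antisense RNA changed relative to its sense gene was tested on the log2 ratio of both within each library. The fit was run over 2880 pairs of genes on opposite strands that are neighbours or share a name. Of the 28 pairs 0 passed at an adjusted p under 0.05 (limma), where 10.6% of all such pairs did, and 5 (17.9%) had an unadjusted p under 0.05, beside 26.4% of all such pairs. With the replicate block 1 passed, beside 11.0% of all pairs. This was USP46-AS1 to USP46, whose log2 ratio fell by 0.59 (SE 0.095, adjusted p = 0.0430, limma with the block). Without the block the SE of this difference was 0.22 and the adjusted p 0.137. Unlike the fit without the block, the blocked ratio fit took the same prior variance for pairs of low and high counts. Its SE of 0.095 lies below the 0.20 of USP46-AS1 alone in edgeR's blocked fit, so this call may rest on too small an error. In an exact permutation test, two-sided, the smallest p that 3 against 3 libraries allow is 0.1, which was reached by the 7 pairs (25.0%) whose ratios did not overlap between the groups. Over all 2880 pairs 32.1% did not overlap.

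The pair that moved apart most was SLC2A1-AS1 and SLC2A1. SLC2A1-AS1 had 24.5, 28.1 and 24.6 normalized counts in NT and 17.3, 15.3 and 23.2 in OXA. SLC2A1 had 6907, 10748 and 9948 normalized counts in NT and 13300, 15211 and 13193 in OXA, with a log2 fold change of 0.60 (SE 0.16, adjusted p = 0.0839) without the block and an adjusted p of 0.0152 with it by edgeR's test. So every OXA library was below every NT library for the antisense RNA and above it for the sense gene. The log2 ratio differed by -1.10 (SE 0.33, adjusted p = 0.0766, limma), and by the same amount with an adjusted p of 0.0633 with the block. Neither fit called this pair, and its antisense counts were low.

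The other pairs whose ratios did not overlap had higher ratios in OXA. PAXIP1-AS1 had 74.6, 86.3 and 69.4 normalized counts in NT and 70.3, 75.2 and 106 in OXA, whereas PAXIP1, which encodes a protein of chromatin and DNA damage responses, had 1860, 1759 and 1441 in NT and 1263, 1218 and 1043 in OXA. The log2 ratio differed by 0.63 (SE 0.25, adjusted p = 0.165, limma). The antisense RNA itself had a log2 fold change of 0.13 (SE 0.23), and that of the sense gene was -0.52 (SE 0.13, adjusted p = 0.0652) without the block, with an adjusted p of 0.00568 with it (edgeR). MAPKAPK5 was similar, with 1718, 1462 and 1589 normalized counts in NT and 1289, 1187 and 1302 in OXA beside the level counts of MAPKAPK5-AS1. That log2 ratio differed by 0.41 (SE 0.13, adjusted p = 0.0837, limma). The rest were NCBP2-AS2 (0.35), RAB30-AS1 (0.36) and PRKCQ-AS1 (0.30), none of which passed.

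The fold changes of antisense RNA and sense gene had a Pearson correlation of 0.50 and a Spearman correlation of 0.42 over the 28 pairs. These are given as a description, since all pairs share the same 6 libraries. The 19 pairs with starts within 1 kb had correlations of 0.18 and -0.0053, and in 6 of them both estimates had the same sign. The 9 pairs with starts farther apart had 0.92 and 0.75, and in all 9 both estimates had the same sign, among them ELFN1, FOXD1, SOX9 and ZNF503 with both strands higher in OXA and VASH1, IQCH, CCDC18 and FOXD2 with both lower. Of these 9 pairs, FOXD1 and VASH1 have over 20% of the antisense exons opposite sense exons. None of the 9 antisense RNAs was called without the block. The count of 9 includes TBC1D8-AS1 at -0.0024 (SE 0.27), whose sign was the opposite with limma-voom (0.0016), without NT3 (0.15), without OXA3 (0.079) and in the blocked fit without number 3 (0.28), and FOXD2-AS1 had 0.078 without NT2. The difference between both kinds of pairs was not tested, and the same values over all opposite-strand pairs are not given here for comparison.

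**Figure D4:**
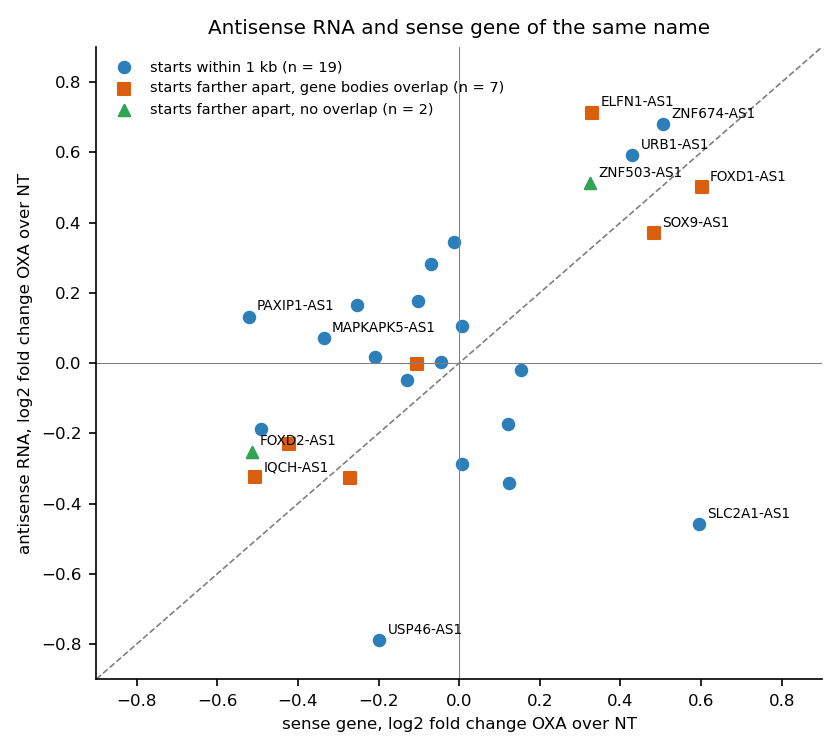
Log2 fold change of OXA over NT of the antisense RNA (vertical axis) against that of the sense gene of the same name (horizontal axis) for 28 pairs, by position of the starts. The dashed line marks equal change. The 9 pairs with distant starts (squares and triangles) lie to the lower left or the upper right of the crossing point of the grey lines, TBC1D8-AS1 at -0.0024 almost on the horizontal one, whereas the 19 pairs with starts within 1 kb (circles) are spread on all sides of it, with SLC2A1-AS1 lowest among those whose sense gene has the higher counts in OXA.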

How the data were processed

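RNA-seq libraries of 3 untreated (NT) and 3 oxaliplatin-treated (OXA) HCT116 samples were analysed, with groups and replicate numbers from the sample labels. The authors mapped 100-base reads to GRCh38 with STAR, and the submitters' processing notes name Trimmomatic 0.32, STAR 2.7.5b, RSEM 1.3.3 and DESeq2 2.13. The counting program's strand setting and gene annotation are not given in the sources used here. The authors deposited whole-number raw counts per gene, which may be rounded estimates since RSEM is listed, and a normalized signal that scales each count by a factor specific to gene and library, which was used for an alternative only.

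Members and gene lists were chosen with earlier results of these data known. The 13727 genes that passed filterByExpr (at least 10 counts, 15 in total) were normalized by TMM and compared by edgeR's quasi-likelihood test. P-values were adjusted by the method of Benjamini and Hochberg over this whole set. Versions were R 4.3.3, DESeq2 1.42.0, limma 3.58.1 and edgeR 4.0.16. A call is an adjusted p under 0.05, and a normalized count is a raw count scaled to a common effective library size. The SE of an edgeR estimate was derived from its test, as the absolute log2 fold change divided by the square root of F. Sense genes were found by name, and positions, strands and exon lengths came from GENCODE 44. The log2 ratio of antisense to sense was tested by limma on log2 CPM with a prior count of 0.5, over 2880 opposite-strand pairs. These overlap or start within 5 kb, except for pairs of the same name that lie farther apart and were added, as ZNF503-AS1 and ZNF503. Limma's prior variance followed the level of the weaker gene without the block and was the same for all pairs with it. The exact permutation test was run on log2(CPM + 0.01). Both fits were checked on simulated counts.

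Named genes were members called in either fit, the 5 most abundant, the 5 highest and 5 lowest fold changes, their sense genes, the RNAs next to the count threshold and pairs that passed the ratio test. Other members and sense genes that the text names, such as those with non-overlapping groups or ratios, were chosen after their values were seen. Deviations from the group means correlated at 0.55, 0.54 and 0.31 for same-numbered libraries and between -0.47 and 0.090 for others, over the limit of 0.1 set for pairing, so the blocked fit is given where it changes a call. The numbers come from the labels, which do not say what they stand for. Alternatives were other size factors, other filters, the authors' factors, DESeq2, limma-voom, the replicate block and leaving out each library. PCR duplicates could not be told apart, so counting error is a lower limit.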

Additional observations from a re-analysis of the deposited data

How the results depend on the processing

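Without a replicate block, no antisense RNA was called under any alternative run, including DESeq2, limma-voom, both size factors, each filter and each library left out (0 to 0), or with members taken at a mean of 10 or 50 counts. With the block 4 were called higher and 1 lower. Without replicate 1, 2 or 3 the block fit called 4, 1 and 3 higher and 2, 0 and 1 lower, a split chosen after seeing the data. Sense genes higher numbered 1 with no filter and 1 with the authors' factors, and 4 with the block, 7, 4 and 5 without replicate 1, 2 or 3 of it, and 0 to 3 with a library left out. Sense genes lower numbered 5 with the block, 10, 1 and 3 without replicate 1, 2 or 3 of it, 1 with DESeq2 and 0 to 1 with a library left out. Pairs called by ratio numbered 1 with the block and 0 with each library left out. Over all genes, 381 were higher and 315 lower, against 1664 and 1493 with the block, 241 and 200 with the authors' factors and 609 and 578 with DESeq2. Without replicate 1, 2 or 3 the block fit called 2939, 956 and 1886 higher and 2800, 673 and 1193 lower, and with 1 library left out the range was 66 to 623 higher and 19 to 571 lower, where without NT1 the counts went up and without any other library down. The cause of these differences was not tested.

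The sign changed for the genes that follow, none of which was called in any of the fits named. MNX1-AS1 (0.018) had log2 fold changes of -0.0097 with no filter, -0.0092 with a filter at a mean of 20, -0.0025 with the authors' factors, -0.0029 with limma-voom, and -0.11 and -0.063 with the block without replicate 1 or 2. UBAC2-AS1 (0.0043) had -0.0013 with RLE size factors, -0.024 with no filter, -0.026 with a filter at a mean of 20, -0.011 with the block, -0.017 with the authors' factors, -0.00061 with DESeq2, -0.022 with limma-voom, and -0.19 and -0.16 with the block without replicate 1 or 3. RALY-AS1 had 0.20 with the authors' factors. TBC1D8-AS1 had 0.0016 with limma-voom. The block without replicate 3 gave -0.15 for PAXIP1-AS1, -0.030 for SCAMP1-AS1, 0.15 for RNF139-AS1 and 0.28 for TBC1D8-AS1, and without replicate 1 it gave -0.069 for STK4-AS1. With 1 library left out, log2 fold changes crossed 0 for FOXD2-AS1 (-0.48 to 0.078), MAPKAPK5-AS1 (-0.039 to 0.14), MNX1-AS1 (-0.070 to 0.13), PAXIP1-AS1 (-0.11 to 0.24), PSMG3 (-0.061 to 0.24), RALY-AS1 (-0.18 to 0.11), RNF139-AS1 (-0.20 to 0.13), RPARP-AS1 (-0.097 to 0.031), SCAMP1-AS1 (-0.13 to 0.32), STK4-AS1 (-0.24 to 0.52), TBC1D8-AS1 (-0.10 to 0.15), UBAC2-AS1 (-0.16 to 0.21) and USP27X-AS1 (-0.023 to 0.35).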

Other observations

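Other classes of non-coding RNA were counted at the same mean of at least 20 counts. Of 13 divergent transcripts whose symbols end in DT, 1 (7.69%) was higher in OXA with and without the replicate block, with a median log2 fold change of 0.030. Of 87 numbered LINC RNAs, 2 were higher and 0 lower (2.30%, beside 5.07% of all genes in edgeR's test), and 10 were higher and 3 lower with the block (14.9%, beside 23.0%). Their median log2 fold change was 0.095. These classes were not tested against the antisense RNAs.

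IQCH-AS1 runs across more than 1 gene of the opposite strand. Its log2 ratio to C15orf61, whose start lies close to its own, differed between OXA and NT by -0.76 (SE 0.33, adjusted p = 0.184, limma) without the replicate block. With the block the difference was the same, with an SE of 0.10 and an adjusted p of 0.0345 (limma), in a fit that called 11.0% of all opposite-strand pairs. The blocked fit took the same prior variance for pairs of low and high counts. For IQCH-AS1 alone edgeR's blocked SE was 0.12. The other 3 pairs of a member with a neighbour of another name did not pass in either fit, with blocked differences of -0.52 (adjusted p = 0.163, limma) for CCDC18-AS1 and DR1, -0.34 (0.186) for VASH1-AS1 and AF111169.1 and -0.31 (0.141) for RPARP-AS1 and C10orf95. Its ratio to IQCH differed by 0.18 (SE 0.17). These neighbours were named after their values were seen.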
